A study of Mus musculus with 31 samples.

Results

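Macrophages grown from mouse bone marrow were treated with an inhibitor or with a degrader of the protein BRD9 and then with lipopolysaccharide (LPS), and their RNA was sequenced. The comparison takes the 3 libraries labelled iBRD9 + LPS against the 3 labelled dBRD9 + LPS, 6 of the 31 libraries of the series, and asks which genes moved with the inhibitor only and which moved opposite ways with each compound. It covers the 12476 genes with enough reads to test, of 35275 gene identifiers. The cells came from male C57BL/6J mice of 6 to 12 weeks and were grown in medium conditioned by L-929 cells. The compounds were given overnight, followed by LPS at 100 ng/ml for 3 h. Each compound was also set against 3 libraries with LPS and no compound, and 3 libraries with vehicle gave the state before LPS. In 3 further groups of 3 libraries the same cells also received the glucocorticoid dexamethasone (Dex, 1 µM): Dex + iBRD9 + LPS, Dex + dBRD9 + LPS and Dex + LPS. The dose of dBRD9 was 250 nM and that of iBRD9 was 3 or 10 µM. The labels do not say which of these doses any sample had, so the compounds were not compared at matched doses. A difference between them is one between these treatments as given.

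BRD9 belongs to the non-canonical form of the BAF complex, which remodels chromatin with energy from ATP. Its bromodomain is a pocket that binds acetylated lysines. An inhibitor such as iBRD9 fills that pocket and leaves the protein in place, whereas dBRD9 links a BRD9 ligand to a ligand of cereblon, a ubiquitin ligase receptor, so that the whole protein is degraded. In macrophages LPS acts through TLR4, first on NF-κB and its target genes and then, by way of interferon beta, on interferon-stimulated genes.

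Depth was 23.7 to 29.9 M (mega) counts in iBRD9 + LPS libraries, 22.1 to 23.5 M in dBRD9 + LPS libraries, 20.5 to 29.7 M with LPS and 20.8 to 26.8 M with vehicle. The macrophage genes Adgre1, Csf1r, Cd68 and Lyz2 had at least 72199 counts each per group of 3 libraries. Of the 16 macrophage identity genes 7 were higher and 7 lower with iBRD9 than with dBRD9, and Itgam (-1.99, SE 0.043), Msr1 (-2.34, SE 0.069) and Fcgr1 (-2.81, SE 0.156) were lower by the most. Nothing in the labels says that replicates were separate mice or cultures, so each p measures the spread between libraries, which may be technical. Levels are counts per M of library total after scaling between libraries (CPM), and the RNA is from whole cultures, in which fewer cells of a type and less RNA per cell cannot be told apart. A gene is called at an adjusted p under 0.05 in edgeR's quasi-likelihood test with Benjamini-Hochberg adjustment over all genes tested, and "rose", "fell", "higher" and "lower" are used of genes called. Positions are those of GENCODE M21 on mm10. Whether counting used the strand is not given in the sources used here, so reads of genes that overlap on opposite strands cannot be told apart.

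The gene of the targeted protein, Brd9 (ENSMUSG00000057649; chromosome 13, 73937811 to 73960895, plus strand), had 25.4, 25.4 and 25.0 CPM in iBRD9 + LPS libraries, 34.6, 37.0 and 35.5 CPM in dBRD9 + LPS libraries, and 45.6, 45.1 and 39.0 CPM with LPS. The 3 groups did not overlap. Both compounds act on the protein, so the transcript does not check the labels. Crbn, which encodes cereblon, had a log2 fold change of 0.33 (SE 0.066) in iBRD9 + LPS against dBRD9 + LPS, with 28.3, 26.7 and 26.8 CPM in iBRD9 + LPS libraries and 22.0, 20.1 and 22.7 CPM in dBRD9 + LPS libraries.

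Of the genes tested, 4014 were higher and 3967 lower in iBRD9 + LPS than in dBRD9 + LPS, which together were 64% of all genes tested, and 548 higher and 1238 lower ones reached a 2-fold difference. The split was 4924 and 3259 when libraries were scaled by their totals, and 3479 and 4563 with a trend on gene length removed. That trend was the Spearman correlation of a library's deviation from its group mean with gene length. It ran from -0.32 to 0.42 in dBRD9 + LPS libraries, -0.16 to 0.18 in iBRD9 + LPS libraries and -0.16 to 0.12 with LPS. Against LPS alone, 4393 genes rose and 4290 fell with iBRD9 (69.6%), and 1557 rose and 1813 fell with dBRD9 (27%). By library totals, these splits were 5667 and 3303 with iBRD9 and 2532 and 1431 with dBRD9. Both of these comparisons share the LPS libraries. A gene was counted as moved with iBRD9 only when it was called against LPS with iBRD9, was not called with dBRD9, and was called between the compounds with the same sign. There were 4832 such genes, 2754 higher (22.1% of genes tested) and 2078 lower (16.7%), or 3113 and 1529 by library totals. By the same rule with the compounds exchanged, 200 genes rose with dBRD9 only (1.6%) and 126 fell (1.01%). A further 1049 genes rose and 1520 fell with both compounds. Among those that fell with both, 1156 fell further with iBRD9 and 42 further with dBRD9 by the test between the compounds. Among those that rose with both, 703 rose further with iBRD9 and 34 further with dBRD9. Opposite calls against LPS, with a call between the compounds, were made for 369 genes: 112 rose with iBRD9 and fell with dBRD9 (0.898%), and 257 fell with iBRD9 and rose with dBRD9 (2.06%). Most of these moves were small, and 6 and 22 genes moved at least 1.5-fold with each compound. The gene nearest to the threshold inside the opposite class was Junb, with log2 fold changes of -0.10 with iBRD9 and 0.09 with dBRD9, and the nearest outside was Casp4, with 0.25 and -0.11. These classes were made from the values themselves, so the values of their members describe them and are no test of them.

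**Figure D1:**
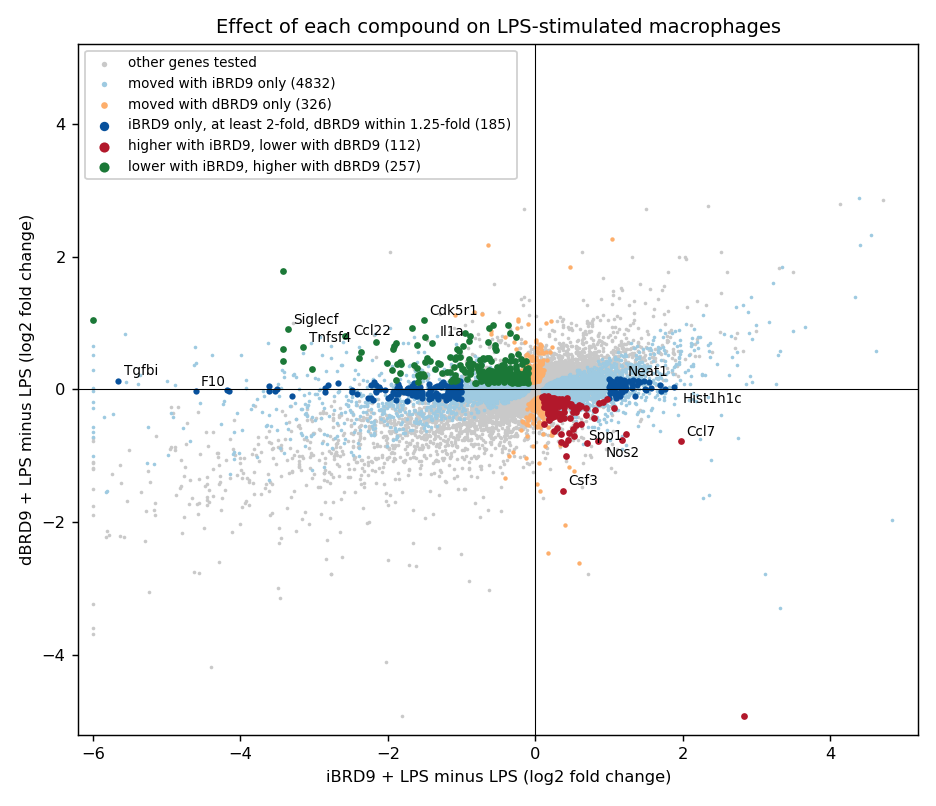
Each point is 1 of 12476 genes, with its log2 fold change against LPS with iBRD9 on the x axis and with dBRD9 on the y axis. Values below -6 or above 6 are drawn at that limit. Colours mark genes that moved with 1 compound only and genes that moved opposite ways, and the LPS libraries are shared by both axes. The points spread further along the iBRD9 axis than along the dBRD9 axis.

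The genes that rose with iBRD9 and fell with dBRD9 included an antimicrobial enzyme, a chemokine and a secreted matrix protein. Nos2 (ENSMUSG00000020826; chromosome 11, 78920787 to 78960254, plus strand), the inducible nitric oxide synthase of activated macrophages, had 611, 518 and 551 CPM in iBRD9 + LPS libraries, 169, 182 and 191 CPM in dBRD9 + LPS libraries, and 311, 312 and 304 CPM with LPS. No group overlapped another, with iBRD9 above LPS and dBRD9 below it. The log2 fold change between the compounds was 1.63 (SE 0.049, adjusted p = 9.1e-22), made up of 0.86 with iBRD9 and -0.78 with dBRD9 against LPS. Ccl7 (ENSMUSG00000035373; chromosome 11, 82045712 to 82047525, plus strand), a chemokine that attracts monocytes, had 313, 339 and 339 CPM with iBRD9, 45.4, 50.1 and 51.2 CPM with dBRD9, and 81.7, 85.7 and 83.9 CPM with LPS. Its neighbour in the same chemokine family, Ccl2, rose with both compounds, with 1707, 1768 and 1810 CPM with iBRD9, 564, 560 and 630 CPM with dBRD9 and 521, 541 and 532 CPM with LPS. For Ccl2 the dBRD9 and LPS libraries lay close together, with a log2 fold change of 0.14 (SE 0.041) that was not called without the third dBRD9 + LPS library (0.08) or the first LPS library (0.13). The iBRD9 libraries lay far above both groups.

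Spp1 (ENSMUSG00000029304; chromosome 5, 104435118 to 104441050, plus strand) encodes osteopontin, a secreted phosphoprotein of macrophages. It had 7026, 6847 and 7203 CPM in iBRD9 + LPS libraries, 3123, 3045 and 3353 CPM in dBRD9 + LPS libraries, and 4692, 4545 and 4453 CPM with LPS. The dBRD9 libraries lay within the range of the vehicle libraries, which had 3103, 3244 and 3405 CPM, except for 1 library just below it. The promoter is shown because Spp1 had the most counts of the genes of this direction described here. Sequences here run from 250 bases before to 50 after a RefSeq transcription start (GRCm38.p6, the mm10 assembly), with capitals marking matches on either strand to the interferon-stimulated response element core (GAAA, any 2 bases and GAAA), to the TATA box TATAAA or to the NF-κB site consensus. The Spp1 window shown, chr5:104434861-104435160 on the plus strand, held a response element core on the reverse strand and a TATA box. The first base of the core lay 157 bases before the start, and that of the TATA box 211 bases before it. The window of another RefSeq start of Spp1, chr5:104435942-104436241, held none of these matches.
Spp1 promoter: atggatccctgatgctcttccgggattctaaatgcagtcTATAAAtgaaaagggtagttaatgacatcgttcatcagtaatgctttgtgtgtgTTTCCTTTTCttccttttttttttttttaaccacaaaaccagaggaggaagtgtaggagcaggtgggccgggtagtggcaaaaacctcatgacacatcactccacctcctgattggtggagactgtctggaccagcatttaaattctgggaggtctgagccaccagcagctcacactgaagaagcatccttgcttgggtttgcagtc

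Smaller genes of the same direction were spread over several functions. Arid5a, an RNA-binding protein known to stabilise Il6 mRNA, had 34.7, 37.6 and 34.9 CPM with iBRD9, 15.4, 15.7 and 15.3 CPM with dBRD9, and 26.8, 26.3 and 25.5 CPM with LPS. Slamf7, a surface receptor of leukocytes, had 299, 320 and 300 CPM with iBRD9, 145, 159 and 150 CPM with dBRD9, and 247, 234 and 242 CPM with LPS. In neither gene did the groups overlap. Slc40a1, the iron exporter ferroportin, differed between the compounds by 1.22 (SE 0.104), with 0.53 against LPS for iBRD9 and -0.70 for dBRD9, and Slc25a28, a mitochondrial iron carrier, by 0.72 (SE 0.090), with 0.35 and -0.37. Prr5l, which binds the mTORC2 kinase complex, and Plekhg2, a guanine nucleotide exchange factor, had 0.70 and 0.45 with iBRD9 and -0.80 and -0.66 with dBRD9. H3f3b, a gene of the replacement histone H3, had 982, 986 and 1013 CPM with iBRD9, 564, 540 and 557 CPM with dBRD9, and 699, 708 and 693 CPM with LPS. It has many processed copies in the genome, so its reads are uncertain. Fam160a2 (0.79 with iBRD9 and -0.44 with dBRD9) and Rhbdd2 (0.39 and -0.34) complete the 12 named by the rule for this direction. Without the third dBRD9 + LPS library the fall of Rhbdd2 with dBRD9 was no longer called, at -0.27.

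Among the genes that fell with iBRD9 and rose with dBRD9 were an interleukin, 2 chemokines that bind the same receptor, and a ligand that costimulates T cells. Il1a (ENSMUSG00000027399; chromosome 2, 129299610 to 129309972, minus strand), interleukin-1 alpha, had 325, 435 and 332 CPM in iBRD9 + LPS libraries, 1497, 1488 and 1652 CPM in dBRD9 + LPS libraries, and 950, 973 and 950 CPM with LPS. No group overlapped another, and the LPS libraries lay between the compounds. The log2 fold change between the compounds was -2.09 (SE 0.066, adjusted p = 3.1e-21), made up of -1.40 with iBRD9 and 0.69 with dBRD9. Its exons share 222 bases with Gm14023 on the opposite strand. Il1b, interleukin-1 beta, moved the same ways by less, with 4829, 5384 and 4728 CPM with iBRD9, 6852, 6948 and 7327 CPM with dBRD9, and 6048, 6029 and 5594 CPM with LPS. The Il1a promoter is shown because it was the interleukin with the larger opposite move. The window, chr2:129309923-129310222 on the minus strand, held a TATA box 32 bases before the start.
Il1a promoter: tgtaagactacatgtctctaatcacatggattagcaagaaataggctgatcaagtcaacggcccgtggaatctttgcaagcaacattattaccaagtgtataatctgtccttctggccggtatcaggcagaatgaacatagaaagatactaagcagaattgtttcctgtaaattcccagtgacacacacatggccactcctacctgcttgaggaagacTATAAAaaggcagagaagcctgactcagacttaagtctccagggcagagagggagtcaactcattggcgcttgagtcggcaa

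Ccl22 (ENSMUSG00000031779; chromosome 8, 94745590 to 94751699, plus strand) and Ccl17 encode ligands of the chemokine receptor CCR4, which is carried by T cells. Ccl22 had 148, 208 and 162 CPM with iBRD9, 1028, 997 and 1086 CPM with dBRD9, and 621, 652 and 636 CPM with LPS. Ccl17 had 16.6, 24.9 and 17.4 CPM with iBRD9, 53.0, 50.8 and 68.4 CPM with dBRD9, and 26.9, 29.7 and 31.2 CPM with LPS. Both were lowest with iBRD9 and highest with dBRD9 without overlap. Tnfsf4 (ENSMUSG00000026700; chromosome 1, 161395409 to 161418410, plus strand), the OX40 ligand, had 12.9, 15.9 and 14.1 CPM with iBRD9, 189, 196 and 204 CPM with dBRD9, and 125, 128 and 125 CPM with LPS. Its log2 fold change between the compounds was -3.78 (SE 0.054), with -3.15 for iBRD9 and 0.64 for dBRD9 against LPS. Siglecf, a lectin that binds sialic acid, was near the floor with iBRD9, at 0.681, 0.458 and 0.687 CPM, against 13.5, 11.3 and 10.8 CPM with dBRD9 and 5.50, 6.80 and 6.70 CPM with LPS.

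Cdk5r1, the activator of the kinase CDK5, had 7.53, 8.04 and 7.26 CPM with iBRD9, 42.7, 46.0 and 44.6 CPM with dBRD9, and 22.1, 23.3 and 19.1 CPM with LPS. Among genes of its direction with at least 10 CPM it had the largest smaller move, with -1.51 for iBRD9 and 1.04 for dBRD9 against LPS. The transcription factor gene Bhlhe40 had -1.50 (SE 0.093) and 0.79 (SE 0.074), the phosphoinositide-binding adaptor Dapp1 -0.89 (SE 0.051) and 0.80 (SE 0.046), the EGF receptor inhibitor Errfi1 -0.98 (SE 0.056) and 0.65 (SE 0.052), and the focal adhesion gene Parvg -1.06 (SE 0.059) and 0.61 (SE 0.053). Dus2, a tRNA dihydrouridine synthase, and Ddx28, an RNA helicase of mitochondria, had -0.89 and -0.63 with iBRD9 and 0.72 and 0.92 with dBRD9. They lie on opposite strands and share 72 exon bases, so each may hold reads of the other.

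**Figure D2:**
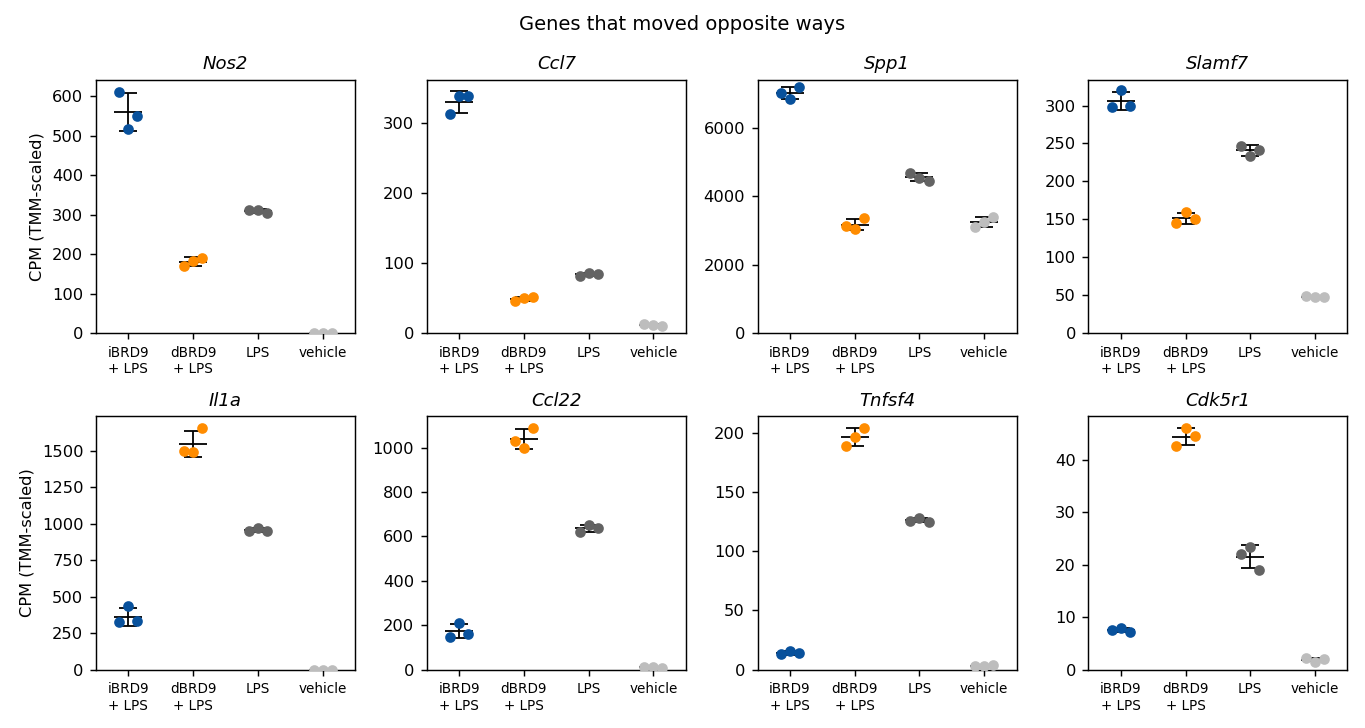
CPM in every library for 8 genes that moved opposite ways, with iBRD9 + LPS, dBRD9 + LPS, LPS and vehicle from left to right (3 libraries each). Points are libraries and bars are the mean and SD. In the upper row LPS lies below iBRD9 and above dBRD9, and in the lower row above iBRD9 and below dBRD9.

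Opposite moves were also present in several gene lists written from textbook knowledge, beside 0.898% and 2.06% of all genes tested in each direction. Of 23 inflammatory cytokines, 5 moved opposite ways. Besides Il1a and Il1b, Csf2 (GM-CSF) was lower with iBRD9 and higher with dBRD9, with 7.63, 8.41 and 6.87 CPM with iBRD9, 18.3, 17.0 and 22.7 CPM with dBRD9 and 9.95, 11.2 and 8.11 CPM with LPS. The iBRD9 and LPS libraries overlapped, and the call of Csf2 with iBRD9 was lost without the third iBRD9 + LPS library (-0.31) or the second LPS library (-0.25). Csf3 (G-CSF) went the other way, with 7.43, 8.95 and 9.23 CPM with iBRD9, 2.28, 1.88 and 2.67 CPM with dBRD9 and 6.15, 7.14 and 6.22 CPM with LPS. Its rise with iBRD9 (0.38) was lost without the third iBRD9 + LPS library, at 0.32. Il15, a cytokine for natural killer cells, had 236, 244 and 244 CPM with iBRD9, 152, 152 and 156 CPM with dBRD9 and 209, 214 and 211 CPM with LPS. Of 12 CC chemokines 3 moved opposite ways, which were Ccl7, Ccl22 and Ccl17.

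Of 15 NF-κB subunits and inhibitors, 3 moved opposite ways. Bcl3, a nuclear IκB protein, had 68.8, 74.5 and 70.2 CPM with iBRD9, 158, 161 and 164 CPM with dBRD9, and 137, 131 and 127 CPM with LPS. Rela, the p65 subunit, moved by 0.22 with iBRD9 and -0.12 with dBRD9, and Tnip1, an inhibitor of NF-κB, by -0.27 and 0.10. The dBRD9 call of Rela was lost without the first dBRD9 + LPS library (-0.11) or the second LPS library (-0.09), and that of Tnip1 without the second or the third dBRD9 + LPS library (0.10 each) or the third LPS library (0.08). Of 15 matrix proteases and inhibitors, 3 were opposite. Adam8, a membrane metalloprotease, had 549, 624 and 590 CPM with iBRD9, 1333, 1310 and 1342 CPM with dBRD9, and 876, 874 and 826 CPM with LPS. Plaur, the urokinase receptor, had -0.76 (SE 0.048) with iBRD9 and 0.26 (SE 0.048) with dBRD9, and Mmp25 -0.69 (SE 0.179) and 0.45 (SE 0.162), with fewer than 6 CPM in any of these libraries. The dBRD9 call of Mmp25 was lost without the second (0.35) or the third (0.46) dBRD9 + LPS library or the first (0.36) or the third (0.41) LPS library. Maff, a small basic leucine zipper factor, had 73.2, 83.6 and 74.9 CPM with iBRD9, 201, 196 and 205 CPM with dBRD9, and 157, 159 and 151 CPM with LPS.

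A stricter set was formed of genes that moved at least 2-fold with iBRD9 only and whose 95% interval for dBRD9 lay within 0.322 of LPS either way on the log2 scale. It held 119 genes that fell and 66 that rose. Among the falls were genes of the matrix, of coagulation and of macrophage fusion. Tgfbi (ENSMUSG00000035493; chromosome 13, 56609523 to 56639562, plus strand), a secreted matrix protein induced by TGF-beta, had 2.32, 2.79 and 2.15 CPM in iBRD9 + LPS libraries, 160, 126 and 114 CPM in dBRD9 + LPS libraries, and 134, 118 and 114 CPM with LPS. The dBRD9 and LPS libraries overlapped, with a dBRD9 log2 fold change of 0.13 (95% interval -0.03 to 0.28), against -5.66 for iBRD9. Without the third dBRD9 + LPS library the dBRD9 change was called, at 0.23. The promoter of Tgfbi is shown because it had the largest fall of the stricter set. The window, chr13:56609336-56609635 on the plus strand, held a response element core 194 bases before the start.
Tgfbi promoter: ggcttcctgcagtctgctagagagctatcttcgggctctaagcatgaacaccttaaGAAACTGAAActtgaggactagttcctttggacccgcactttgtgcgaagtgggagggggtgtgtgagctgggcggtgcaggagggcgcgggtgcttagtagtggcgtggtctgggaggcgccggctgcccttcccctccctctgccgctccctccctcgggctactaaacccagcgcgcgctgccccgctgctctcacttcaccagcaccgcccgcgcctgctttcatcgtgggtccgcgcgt

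F10, coagulation factor X, had 11.7, 17.3 and 8.42 CPM with iBRD9, 301, 296 and 297 CPM with dBRD9, and 300, 312 and 300 CPM with LPS. Lrrc32 (GARP), which holds latent TGF-beta at the cell surface, had 5.45, 8.50 and 5.07 CPM with iBRD9, 106, 121 and 117 CPM with dBRD9, and 113, 113 and 119 CPM with LPS. In both genes the iBRD9 libraries lay far below the others, and the dBRD9 and LPS libraries overlapped. Dcstamp, needed for the fusion of osteoclasts and giant cells, had 54.9, 74.7 and 52.5 CPM with iBRD9, 443, 439 and 455 CPM with dBRD9, and 420, 426 and 430 CPM with LPS. Its dBRD9 libraries lay just above the LPS libraries, with a log2 fold change of 0.07 (95% interval -0.06 to 0.20). Gpc1, the heparan sulfate proteoglycan glypican, fell by 2.85 with iBRD9 (SE 0.051), and the chemokine receptor gene Ccr1 by 3.30 (SE 0.085). Their dBRD9 log2 fold changes were -0.04 (SE 0.045) and -0.10 (SE 0.060). Kctd12b (-3.62), Tmem178 (-3.61) and Cd247 (-3.50), the last a signalling chain of the T cell receptor that other leukocytes also use, complete the named falls with Ifit3b (-3.53). Cd247 shares 3007 exon bases with Pou2f1 on the opposite strand. Ifit3b has a near-identical copy in Ifit3, which fell with dBRD9 by 0.59, so the split between them is uncertain.

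The rises of the stricter set were smaller. Hist1h1c (ENSMUSG00000036181; chromosome 13, 23738808 to 23740367, plus strand), a linker histone, had 134, 113 and 131 CPM in iBRD9 + LPS libraries, 33.1, 35.4 and 37.1 CPM in dBRD9 + LPS libraries, and 30.3, 37.0 and 35.2 CPM with LPS. Kif3a, a kinesin motor subunit, had 39.3, 34.5 and 36.3 CPM with iBRD9, 11.5, 10.4 and 10.7 CPM with dBRD9, and 10.2, 11.4 and 10.9 CPM with LPS. In both, dBRD9 and LPS libraries were interleaved. Gdf15, a cytokine of stressed cells, had 327, 282 and 308 CPM with iBRD9, 104, 103 and 113 CPM with dBRD9, and 108, 110 and 104 CPM with LPS. Neat1, the long non-coding RNA that scaffolds paraspeckles, had 1300, 1117 and 1152 CPM with iBRD9, 462, 408 and 288 CPM with dBRD9, and 367, 342 and 393 CPM with LPS. The dBRD9 libraries of Neat1 varied, and without the third the dBRD9 change was called, at 0.25. Crebrf (1.58), Casp9 (1.54), the initiator caspase of mitochondrial apoptosis, the SNARE gene Snap47 (1.49), C2cd2l (1.48), Ormdl3 (1.42), an inhibitor of sphingolipid synthesis, and Tex2 (1.40) made up the rest, with dBRD9 values between 0.01 and 0.13, none of them called. Where the bound on dBRD9 was 1.5-fold, 259 genes fell and 174 rose.

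**Figure D3:**
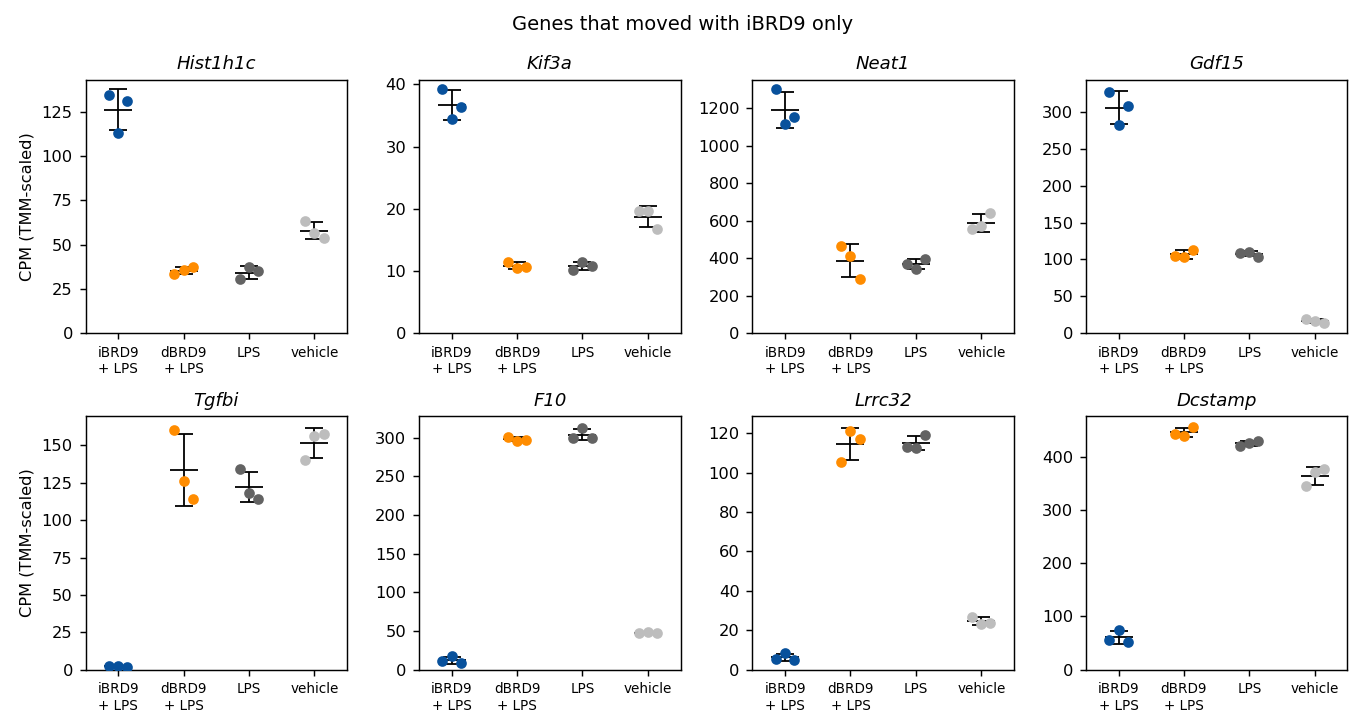
CPM in every library for 4 genes that rose (upper row) and 4 that fell (lower row) with iBRD9 only, with iBRD9 + LPS, dBRD9 + LPS, LPS and vehicle from left to right (3 libraries each). Points are libraries and bars are the mean and SD. The dBRD9 + LPS and LPS groups lie side by side in each panel, and iBRD9 + LPS lies apart from both.

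The mirror image of the stricter set, 2-fold with dBRD9 and bounded with iBRD9, held 1 gene. Tspyl3 had 12.1, 13.7 and 12.9 CPM with iBRD9, 5.82, 5.92 and 5.59 CPM with dBRD9, and 12.5, 12.8 and 11.9 CPM with LPS. It fell by 1.11 with dBRD9 (SE 0.097), with 0.05 (SE 0.083) for iBRD9. Smaller moves with dBRD9 only included falls of the MAP kinase phosphatase gene Dusp2 (-0.56, SE 0.045) and of the phospholipase gene Pla2g4a (-0.48, SE 0.061). They also included rises of the interleukin-4 receptor gene Il4ra (0.34, SE 0.041), of Ly96 (0.38, SE 0.088), the LPS-binding partner of TLR4, and of its adaptor gene Ticam1 (0.30, SE 0.043). For these 5 genes the iBRD9 values against LPS were 0.02, 0.04, -0.08, 0.07 and -0.04. These dBRD9-only calls depended on the scaling. By library totals iBRD9 raised Ly96 (0.21), Tspyl3 (0.18), Pla2g4a (0.18), Dusp2 (0.15) and Ticam1 (0.10). Il4ra fell with iBRD9 by median-ratio scaling (-0.11), in DESeq2 (-0.11), with a minimum count of 50 (-0.10) and with the length trend removed (-0.16), and Ticam1 did with the length trend removed (-0.12).

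Whole lists were read against all genes tested, of which 32.2% were higher and 31.8% lower in iBRD9 + LPS than in dBRD9 + LPS with a median log2 fold change of 0.01, 35.2% rose and 34.4% fell with iBRD9, and 12.5% rose and 14.5% fell with dBRD9. Genes moved with iBRD9 only were 38.7% of all genes tested. Of 24 genes of cholesterol synthesis, 19 were lower and 3 higher with iBRD9 than with dBRD9 (median -0.52). Against LPS 20 fell and 2 rose with iBRD9, while 2 fell and 2 rose with dBRD9, and 18 were in the class moved with iBRD9 only. Cyp51, the lanosterol demethylase, had 61.9, 72.5 and 60.8 CPM with iBRD9, 167, 171 and 195 CPM with dBRD9, and 171, 180 and 173 CPM with LPS. Idi1 and Hsd17b7 fell with iBRD9 by 0.98 (SE 0.074) and 1.02 (SE 0.080), with -0.07 (SE 0.071) and -0.04 (SE 0.075) for dBRD9. Srebf2, the transcription factor of the pathway, fell with iBRD9 (-0.56, SE 0.040) and rose with dBRD9 (0.11, SE 0.040). Leaving out any 1 of the LPS libraries, or the second or the third dBRD9 + LPS library, ended the dBRD9 call of Srebf2 (0.07 to 0.12).

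Glycolysis genes and HIF1 targets had 14 of 22 members lower and 4 higher with iBRD9 than with dBRD9 (median -0.21), and 12 moved with iBRD9 only. Hk2, which traps glucose as its phosphate, had 39.8, 40.6 and 39.8 CPM with iBRD9, 69.9, 74.9 and 76.4 CPM with dBRD9, and 67.8, 63.9 and 66.0 CPM with LPS. The myeloid isoform gene Hk3 was higher with iBRD9, at 927, 955 and 933 CPM, than with dBRD9, at 584, 606 and 626 CPM, or LPS, at 530, 523 and 541 CPM. The 22 genes of oxidative phosphorylation had 9 lower and 3 higher members with a median of -0.06. When libraries were scaled by their totals alone there were 3 lower and 5 higher members and the median was 0.03. Without the first iBRD9 + LPS library, or the first or the third dBRD9 + LPS library, 4 members were lower.

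Lysosomal genes went up with iBRD9 more often than down, with 16 of 22 higher and 3 lower than with dBRD9 (median 0.19), and 14 rose and 6 fell with iBRD9 against LPS. Ctsb, the protease cathepsin B, had 15703, 15515 and 16124 CPM with iBRD9, 10564, 10537 and 10541 CPM with dBRD9, and 10335, 10539 and 10154 CPM with LPS. Neu1, a lysosomal sialidase, and the calcium channel gene Mcoln1 were higher with iBRD9 than with dBRD9 by 0.75 (SE 0.044) and 0.51 (SE 0.055), whereas Ctss, cathepsin S, was lower by 0.66 (SE 0.037). Of 10 BET proteins and regulators of the elongation factor P-TEFb, 6 were higher and 1 lower (median 0.24). Brd2, a bromodomain protein of the BET family, had 1142, 1022 and 1165 CPM with iBRD9, 551, 592 and 590 CPM with dBRD9, and 601, 625 and 615 CPM with LPS. Hexim1, an inhibitor of P-TEFb, had 61.6, 58.2 and 62.9 CPM with iBRD9, 37.8, 37.9 and 39.5 CPM with dBRD9, and 31.2, 34.4 and 29.5 CPM with LPS. Of 10 MAP kinase phosphatases and MAPK-interacting kinases 8 were higher and 1 lower (median 0.49), among them Mknk2, an eIF4E kinase, with 136, 113 and 146 CPM with iBRD9, 26.0, 28.6 and 29.4 CPM with dBRD9, and 19.1, 18.8 and 18.2 CPM with LPS. All 4 replication-dependent histone genes tested were higher with iBRD9 than with dBRD9, of 12 in the list, with a median of 1.46.

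Matrix proteases and inhibitors were lower with iBRD9 in 13 of 15 cases and higher in 1 (median -1.15). Mmp12, the macrophage elastase, had 1937, 2134 and 1863 CPM with iBRD9, 6275, 6550 and 7066 CPM with dBRD9, and 6724, 6998 and 6727 CPM with LPS. Timp1, an inhibitor of these proteases, had 2.08, 3.00 and 2.58 CPM with iBRD9, 22.2, 22.4 and 22.7 CPM with dBRD9, and 19.2, 19.6 and 21.4 CPM with LPS. For both, dBRD9 made no called change. Immediate early transcription factors had 11 of 19 lower and 4 higher members (median -0.20). Egr2 had 27.1, 25.4 and 26.5 CPM with iBRD9, 98.3, 96.3 and 93.1 CPM with dBRD9, and 103, 104 and 101 CPM with LPS, and Jun had 72.2, 61.7 and 72.9 CPM with iBRD9, 20.0, 20.2 and 22.5 CPM with dBRD9, and 17.2, 18.1 and 19 CPM with LPS. Irf4, a factor of alternatively activated macrophages, fell with iBRD9 only, with 2.76, 3.37 and 2.06 CPM with iBRD9, 24, 21.9 and 25 CPM with dBRD9, and 19.2, 21.8 and 22.3 CPM with LPS.

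Several other lists fell with both compounds and further with iBRD9, whereas MHC class I presentation fell mainly with iBRD9. Of 63 type I interferon-induced genes, 62 fell with iBRD9 (median -1.68) and 60 with dBRD9 (median -0.52). All 8 MHC class II genes tested were lower with iBRD9 than with dBRD9 (median -2.27), and 7 fell with iBRD9 and 6 with dBRD9 against LPS. H2-Ab1, a class II chain, had 11, 14.7 and 8.85 CPM with iBRD9, 68.4, 64.3 and 64.1 CPM with dBRD9, and 169, 171 and 169 CPM with LPS. Of 12 genes of MHC class I presentation, 8 were lower and 2 higher with iBRD9 than with dBRD9 (median -0.33). Against LPS 9 fell and 2 rose with iBRD9, while 3 fell and 2 rose with dBRD9 (median 0.01). The 2 that rose with iBRD9 were the heavy chain genes H2-K1 and H2-D1. H2-K1 rose by 0.80 (SE 0.034) with iBRD9 and 0.20 (SE 0.034) with dBRD9. Of 42 cell cycle genes, 38 fell with iBRD9 and 22 with dBRD9. The mitotic kinesin Kif11 had 2.49, 2.96 and 2.83 CPM with iBRD9, 11, 12.2 and 12.5 CPM with dBRD9 and 13, 13.7 and 12.7 CPM with LPS. Ccr2, the receptor of Ccl2 and Ccl7, had 0 reads in the iBRD9 + LPS libraries, 17 in the dBRD9 + LPS libraries and 235 with LPS. With a floor of 3 counts over the group it was at least 6.9-fold lower with iBRD9 than with dBRD9. Interferon beta, Ifnb1, had 0.273, 0.708 and 0.386 CPM with iBRD9, 2.81, 2.43 and 3.35 CPM with dBRD9, and 6.42, 6.12 and 5.62 CPM with LPS. Its promoter is shown as that of the gene through which LPS reaches the interferon-induced list. The window, chr4:88522745-88523044 on the minus strand, held the NF-κB site consensus 116 bases before the start and TATA boxes 210 and 82 bases before it.
Ifnb1 promoter: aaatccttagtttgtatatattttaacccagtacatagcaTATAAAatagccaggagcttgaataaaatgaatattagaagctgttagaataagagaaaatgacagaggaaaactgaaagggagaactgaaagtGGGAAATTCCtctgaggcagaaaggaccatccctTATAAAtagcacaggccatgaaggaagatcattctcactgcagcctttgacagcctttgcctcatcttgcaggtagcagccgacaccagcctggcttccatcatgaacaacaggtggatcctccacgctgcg

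**Figure D4:**
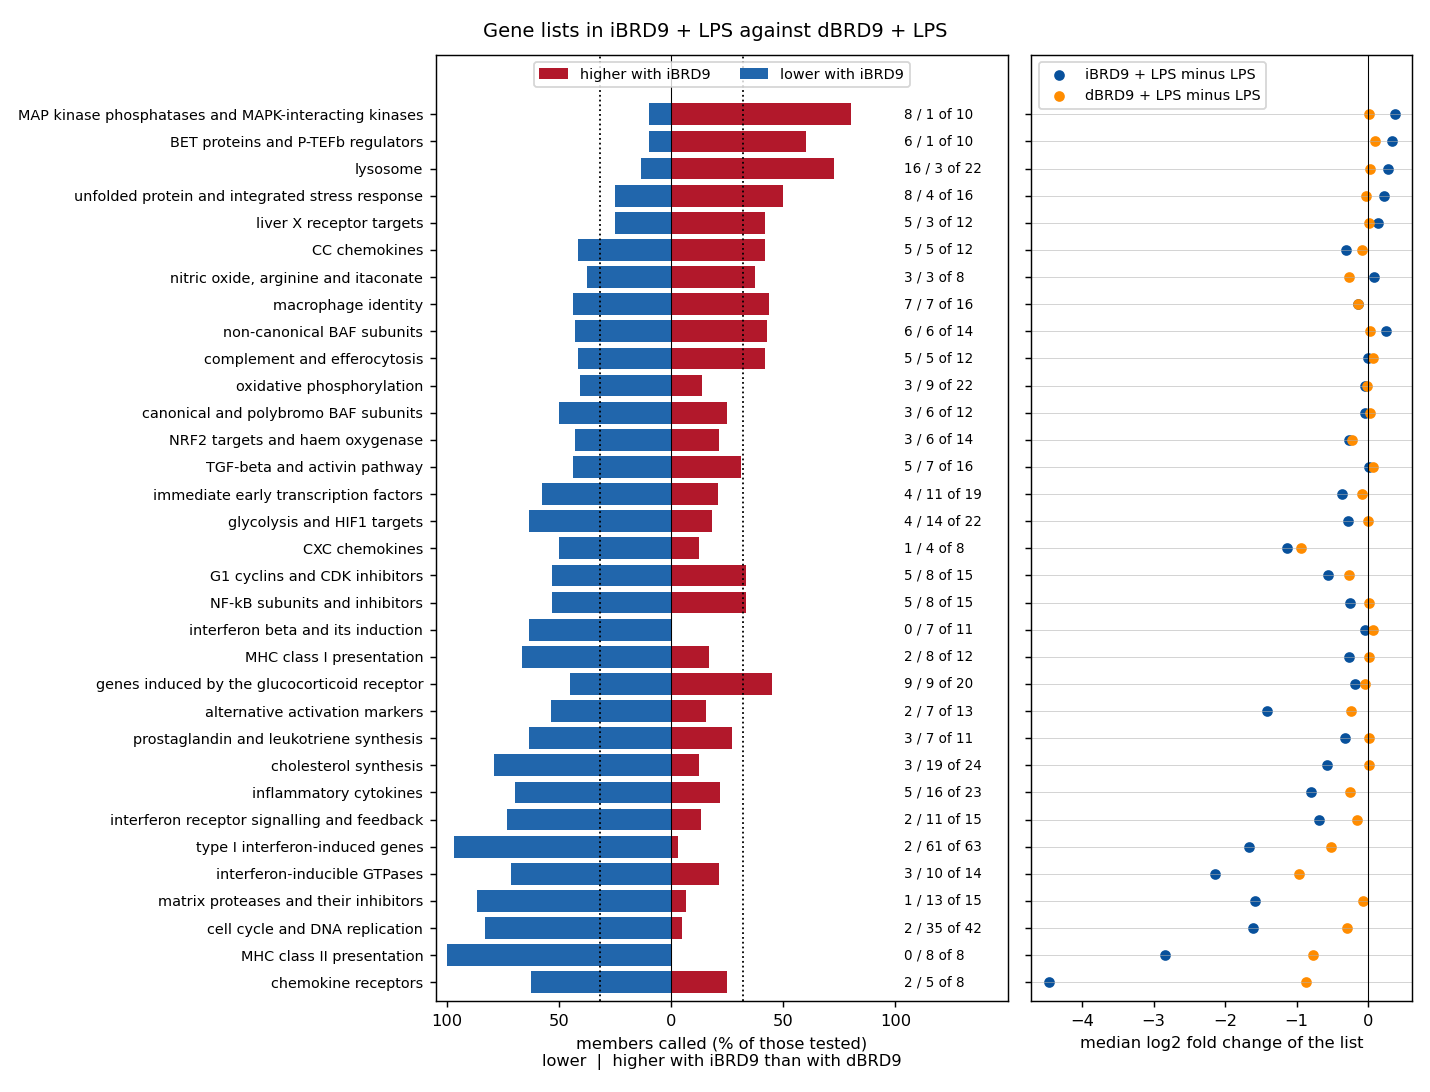
Gene lists with at least 8 members tested, ordered by their median between the compounds. Left, the percent of members higher (red) and lower (blue) in iBRD9 + LPS than in dBRD9 + LPS, with counts written as higher / lower of tested and dotted lines at the 32.2% and 31.8% of all genes. Right, the median log2 fold change of each list against LPS, with iBRD9 in blue and dBRD9 in orange, where most lists lie further from 0 with iBRD9.

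Among promoter windows of the genes tested, 3.28% held a response element core, 10.4% the NF-κB consensus and 7.13% a TATA box. Of windows of the interferon-induced list 39.7% held the response element core, and of those of genes at least 2-fold lower with iBRD9 than with dBRD9 7.67% did, against 1.92% of those at least 2-fold higher. For genes that fell with iBRD9 and rose with dBRD9 the shares were 2.66% for the response element core and 13.7% for the NF-κB consensus. These were 7 and 36 of 263 windows. For the opposite direction the shares were 5.45% and 6.36%, which were only 6 and 7 of 110 windows. The 6 letters TTTGAA of the cell cycle homology region stood in 12.2% of windows of genes tested and in 18.0% of those of genes at least 2-fold lower with iBRD9. A window could hold several motifs, matches may overlap, and a match describes letters and no bound factor.

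The difference between the compounds was set beside the response to LPS, which was measured in libraries with neither compound. At the same threshold LPS raised 36.8% and lowered 43.7% of genes against vehicle (80.5% in all). Of 1776 genes that LPS raised at least 2-fold, 1188 were lower and 231 higher in iBRD9 + LPS than in dBRD9 + LPS, with a median log2 fold change of -0.48. Of 2387 genes that LPS lowered at least 2-fold, 450 were lower and 1045 higher, with a median of 0.33. Among the other 8313 genes, 2329 were lower and 2738 higher (median 0.03). Snx30, a sorting nexin, is an example among genes that LPS lowered. It had 13.5, 13.4 and 15.3 CPM with iBRD9, 1.60, 1.97 and 2.33 CPM with dBRD9, and 1.70, 1.63 and 2.22 CPM with LPS, where vehicle libraries had 77.6, 76.3 and 75.3 CPM.

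Markers of other cell types also differed. Of 10 neutrophil markers 5 could be tested and all 5 were lower with iBRD9 than with dBRD9, and the summed CPM of the list was 0.988 to 2.38 with iBRD9, 19.6 to 22.1 with dBRD9 and 17.4 to 24.7 with LPS. Of these markers, Ly6g and Mpo had 0 reads in all 3 groups, and Elane had 1, 0 and 3 reads with iBRD9, dBRD9 and LPS. In the same order, S100a8 had 36, 355 and 405 reads, S100a9 had 54, 481 and 448, and Ngp had 22, 297 and 367. Ltf had 7, 138 and 102, Camp 4, 25 and 67, Cxcr2 0, 9 and 10, and Retnlg 0, 0 and 7. The stromal list summed to 0.988 to 2.04 CPM with iBRD9, 11.2 to 12.6 with dBRD9 and 30.4 to 33.9 with LPS, and Pdgfrb made up nearly all of it, with 1.94, 1.33 and 0.859 CPM with iBRD9, 12.0, 10.7 and 12.1 CPM with dBRD9 and 33.2, 30.4 and 29.8 CPM with LPS. Of 8 dendritic cell markers, 4 were tested, 3 were lower with iBRD9 and 1 was not called, and the list summed to 106 to 115 CPM with iBRD9, 141 to 170 with dBRD9 and 184 to 188 with LPS, most of it Bst2, which interferon also induces in macrophages. The T cell genes Cd3e and Cd3g and the B cell gene Ms4a1 had 0 reads in all 3 groups. Other members were read, with 239, 200 and 237 reads of Cd4 and 2100, 1613 and 1371 of Ighm with iBRD9, dBRD9 and LPS. The B cell list summed to 25.7 to 28.7 CPM with iBRD9, 23.9 to 27.8 with dBRD9 and 20.3 to 21.8 with LPS. The T and natural killer cell list summed to 2.76 to 4.12, 2.76 to 4.03 and 3.53 to 3.95 CPM. No tested member of either list was called between the compounds. The part of these cells in the results was not tested.

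The same pair of compounds was present with Dex, in libraries that share none with the comparison above. There 367 genes (3.14%) were higher and 632 (5.41%) lower, 8.56% together, in Dex + iBRD9 + LPS than in Dex + dBRD9 + LPS. The first Dex + dBRD9 + LPS library and the first Dex + LPS library stood apart from their replicates. Without both, 1359 genes were higher and 1663 lower. Of the 66 genes of the stricter set that rose with iBRD9 only, 65 had the same sign with Dex and 32 were called higher, and without the libraries that stood apart 53 were. Of the 119 that fell, 111 had the same sign and 59 were called lower, and 84 without those libraries. Of the genes that rose with iBRD9 and fell with dBRD9, 103 of 111 tested had the same sign and 30 were called, and 65 without those libraries. In the other direction 230 of 252 had the same sign, 101 were called lower and 1 higher, and 177 were called lower without those libraries. Leaving out any 1 Dex + iBRD9 + LPS or Dex + dBRD9 + LPS library gave 14 to 23, 34 to 47, 17 to 20 and 50 to 71 calls in the same order of classes, and leaving out the first Dex + LPS library gave 51, 78, 60 and 157. The whole class moved with iBRD9 only was called less often with Dex than its stricter set. Of its rises, 2233 of 2689 tested had the same sign with Dex and 188 (6.99%) were called higher. Of its falls, 1543 of 1892 had the same sign and 233 (12.3%) were called lower. Beside these, 3.14% and 5.41% of all genes were called higher and lower. Over all genes, 51.6% had a positive and 48.4% a negative sign in the Dex pair.

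Nos2 kept its separation with Dex, at 65.7, 61.4 and 76.1 CPM with Dex + iBRD9 + LPS, 19.6, 18.4 and 26.2 CPM with Dex + dBRD9 + LPS, and 24.7, 27.1 and 25.5 CPM with Dex + LPS. Its log2 fold change between the compounds was 1.67 (SE 0.128), and the dBRD9 and Dex + LPS libraries overlapped. Arid5a had 1.09 (SE 0.155) with Dex and 1.21 (SE 0.063) without it. Il1a was closer together, at 108, 104 and 95.1 CPM with Dex + iBRD9 + LPS, 135, 131 and 160 CPM with Dex + dBRD9 + LPS, and 113, 104 and 103 CPM with Dex + LPS. Its log2 fold change was -0.47 (SE 0.087). Tgfbi had 80.7, 77.5 and 70.6 CPM with Dex + iBRD9 + LPS, 170, 170 and 174 CPM with Dex + dBRD9 + LPS, and 185, 182 and 167 CPM with Dex + LPS, so that -5.79 (SE 0.126) without Dex stood beside -1.17 (SE 0.068) with it. Ccl17 turned round, with 16, 15.8 and 14.2 CPM with Dex + iBRD9 + LPS, 10.3, 9.11 and 8.82 CPM with Dex + dBRD9 + LPS, and 24.4, 14.3 and 17.1 CPM with Dex + LPS (0.70, SE 0.171). For Errfi1, itself a target of the glucocorticoid receptor, the compounds were not called different with Dex (0.17, SE 0.106).

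**Figure D5:**
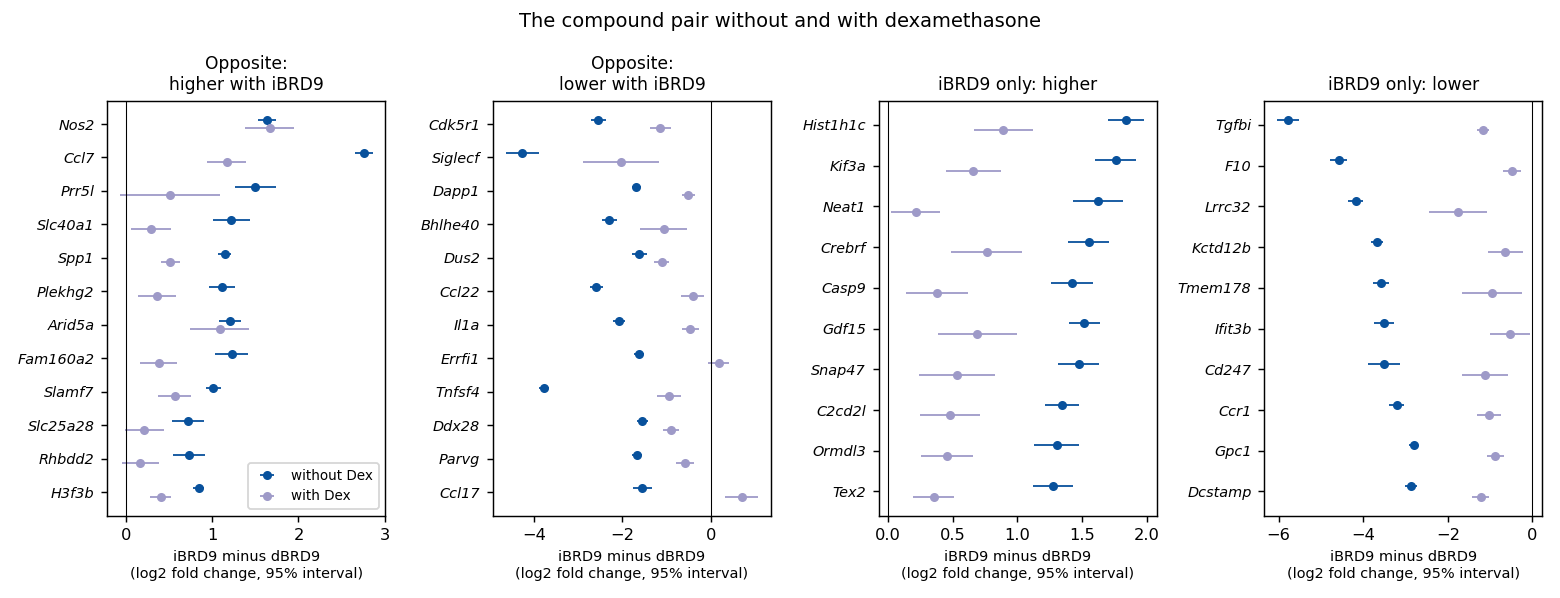
Log2 fold change between iBRD9 and dBRD9 with its 95% interval for the named genes of the opposite classes and of the stricter iBRD9-only set, without Dex (dark) and with Dex (light). Of 44 genes, Ccl17 and Errfi1 lie on the other side of 0 with Dex, and most of the others lie nearer to 0. The genes were chosen for large values without Dex, so values nearer to 0 with Dex may follow in part from that choice.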

How the data were processed

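Raw read counts per Ensembl gene, 1 column per library, were deposited by the authors. Per the submitters' processing notes reads were handled with fastp, STAR and DESeq2 on mm10, with no versions or roles. How reads were counted, and on which strand, is not given in the sources used here. Groups came from the labels. Symbols were matched for 34490 of 35275 identifiers with GENCODE M21 (mm10).

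The 12 libraries without Dex were fitted with 1 coefficient per group in edgeR 4.0.16 (R 4.3.3): filterByExpr (minimum count 10, minimum total 15), TMM scaling, which sets libraries to a common scale over most genes, and quasi-likelihood F tests with Benjamini-Hochberg adjustment (8 residual degrees of freedom, common biological coefficient of variation 3.99%). The 9 Dex libraries were fitted apart (6 residual degrees of freedom, 9.38%, 11675 genes). They were left out of the main fit because 2 of their libraries were known to stand apart. The third vehicle library also stood apart and was kept. Its chi-square per degree of freedom was 11.4 against each other vehicle library, and 2.36 between those. For the first Dex + dBRD9 + LPS library it was 12.4 and 12.8 against its replicates. Without the third vehicle library 7988 genes were called between the compounds. The response to LPS was not computed without it. Each SE was taken as the absolute log2 fold change over the root of its F. The steps were tested on simulated data.

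Named genes needed a mean of 10 CPM in the higher group, except 17 fixed ones, opposite movers in lists and lists with few calls. They were the 12 highest and 12 lowest between the compounds without overlap of libraries, the 12 opposite movers each way with the largest smaller move, the 10 highest and 10 lowest of the stricter sets, and up to 4 called members per list by size plus members that moved opposite ways. The members and the 42 lists were chosen with earlier results of these data known. Not every gene the rule allows is described, and 1 of them is not reported here. Junb and Casp4 were added as neighbours of the threshold. Floors cover counting error only. Sequences are from RefSeq, where Nos2 and Ccl7 have no entry. Alternatives were other scalings, filters, tools and sample sets.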

Additional observations from a re-analysis of the deposited data

Results flagged for a closer look

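For 37 of the 222 genes named by the rule, the sign of the difference between the compounds changed between the pair without Dex and the pair with Dex, and the change itself passed edgeR's test (adjusted p under 0.05 over 12662 genes, of which 29.8% passed). The test fitted all 7 groups together and was added after both pairs had been seen. In 14 of these genes the libraries of the compounds also did not overlap in either pair, and these are given here. Without Dex the libraries of the compounds did not overlap for 66.1% of all genes tested. Most named genes were chosen by their call between the compounds without Dex, and how many of all genes met every condition was not counted. Values are the log2 fold change of iBRD9 against dBRD9 without Dex minus that with Dex.

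The chemokines Ccl17, Cxcl3 and Cxcl9 had -2.24, -1.90 and -1.66. The formyl peptide receptor gene Fpr2 had -2.40 and the interleukin gene Il6 -0.81. Of genes induced by interferon, the GTPase gene Irgm2 had -2.00 and the peptide transporter gene Tap1 -1.28. Irgm2 shares exon bases with Igtp on the same strand. The centromere kinesin Cenpe had -2.16, the cholesterol exporter Abca1 -1.30, the TGF-beta receptor gene Tgfbr1 -0.93, the glycolysis regulator Pfkfb3 -0.83 and the transcription factor gene Junb -0.26. The phosphatase gene Dusp1 had 0.75 and the lysozyme gene Lyz2 0.71. All 14 were called between the compounds without Dex, and Ccl17, Dusp1, Fpr2, Irgm2 and Lyz2 also with Dex. For the others the sign with Dex is that of an estimate that was not called.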

How the results depend on the processing

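Direction and call of the named genes between the compounds were the same under all alternatives for 215 of 222 genes. The counts were 197 for iBRD9 + LPS against LPS and 177 for dBRD9 + LPS against LPS. Most named genes were chosen by their call between the compounds, so the count of 215 follows in part from that choice. It does not measure how stable that comparison was over all genes. With all 7 groups in 1 fit, dBRD9 + LPS against LPS had 2103 calls, the genes that moved with dBRD9 only were 210, the genes that moved opposite ways 187, and Dex + iBRD9 + LPS against Dex + dBRD9 + LPS had 2022. The opposite movers were 28 at 1.5-fold with each compound, and the stricter iBRD9-only set was 433 with a bound of 1.5-fold. The last 2 counts follow from the other threshold by construction, and for the fits the cause was not tested. Without the 2 Dex libraries that stood apart, an alternative chosen after seeing the data, the Dex pair had 3022 calls.

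With scaling by library totals only, iBRD9 + LPS against LPS had a median of 0.15 (log2) over genes tested, in place of 0.01. The splits of higher and lower genes then were 5667 and 3303 for iBRD9 + LPS against LPS, 2532 and 1431 for dBRD9 + LPS against LPS, and 3113 and 1529 for the genes that moved with iBRD9 only. Under it Ticam1, Junb, Spi1 and G6pdx had 0.10, 0.034, 0.017 and 0.0029 for iBRD9 against LPS, with the sign reversed. Members of the smaller classes changed more than their counts. By library totals 423 genes moved opposite ways, and 266 of the 369 in the main fit were among them. The stricter set had 191 genes and kept 122 of 185. The genes that moved with dBRD9 only were 352 and kept 136 of 326.

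Leaving out 1 library gave 394 (without Dex + iBRD9 + LPS replicate 3) to 2645 (without Dex + LPS replicate 1) calls in the Dex pair, 7408 to 7988 between the compounds, 8185 to 8799 for iBRD9 and 2775 to 3545 for dBRD9 against LPS, 4418 to 5016 genes with iBRD9 only, 264 to 341 with dBRD9 only, 288 to 400 opposite and 164 to 203 in the stricter set. No pairing of samples by replicate number was seen. Deviations from the group mean had correlations of -0.12 to 0.07 over 9 pairs of the same number. Over 18 pairs of different numbers they were -0.08 to 0.13. Length trends of single libraries also enter these correlations, so they cannot settle whether samples were paired. A replicate block gave 7868 calls between the compounds, 4835 genes with iBRD9 only, 318 with dBRD9 only, 362 opposite, 184 in the stricter set and 1257 in the Dex pair. DESeq2 made 7652 calls and limma voom 7944 between the compounds. The doses were not matched, and the replicates may be technical. At this depth a gene was tested only with about 10 reads in each of 3 libraries of the fit, vehicle included. A tested gene could thus have few reads in the groups compared.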
